A study of Mus musculus with 10 samples.

Results

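The glycolytic enzymes, their transporters and the oxygen-sensing and hypoxia-inducible genes were followed as a set of 35 genes in lymphatic endothelial cells (LEC) of mouse tumours. They were chosen by name, and each of the 35 was found on 1 of the 23510 rows of the deposited gene table. MT-ret is a mouse melanoma model, and tumour fragments were implanted on the flank of C57BL/6N mice. One group received an intraperitoneal antibody against angiopoietin-2 (anti-Ang2), which blocks a ligand of the endothelial receptor Tie2, and the other received control IgG. All mice were killed 12 h later, LEC were sorted by flow cytometry, and each of the 5 mice per group gave 1 library from 0.5 ng of RNA. The host strain and the implanted tumour were the same in both groups, and the labels give neither age nor sex.

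Glycolysis splits glucose into pyruvate in a preparatory phase that spends ATP and a pay-off phase that returns it; pyruvate is then reduced to lactate and exported, or enters the mitochondria. At low oxygen the prolyl hydroxylases of the Egln family no longer mark the alpha subunits Hif1a and Epas1 for degradation. Hif1a then raises the transcription of most glycolytic enzymes, and both factors raise that of further target genes. Endothelial cells are known to rely on glycolysis for much of their ATP, and melanoma cells are known for a high glycolytic rate. The question put by the series title is how tumour LEC respond to acute inhibition of Ang2. The pigment cell transcripts Dct and Tyrp1, which encode enzymes of melanin synthesis, were measured beside the members because transcripts of pigment cells were detected in the sorted samples.

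Library totals ran from 38090933 to 83850341 gene counts. All 10 markers of lymphatic endothelium were detected, with summed levels of 15168 to 20243 CPM in anti-Ang2 and 18461 to 21830 CPM in IgG libraries (CPM are counts scaled to library size, with TMM factors). Of the 10, 8 were lower on average after anti-Ang2, and Lyve1 and Reln were higher. The edgeR test called 2 lower, beside 2.80% of all tested genes. These were Tek (means of 202 CPM in anti-Ang2 and 503 CPM in IgG libraries, edgeR adjusted p = 0.00116) and Ccl21a (379 and 883 CPM, 0.00447). All 12 pigment cell markers were detected as well, none was at 0 in every library, and their sum was 1135 to 5580 CPM in anti-Ang2 and 269 to 1862 CPM in IgG libraries (two-sided exact permutation p = 0.0476, smallest possible p 0.00794). The summed level of 15 macrophage and monocyte markers was 79.3 to 311 CPM in anti-Ang2 and 54.5 to 234 CPM in IgG libraries (exact permutation p = 0.119). Of the 13 that were tested, 12 were higher on average and 1, Mrc1, was lower, with a list median log2 fold change of 1.42. At an unadjusted edgeR p under 0.05, 4 were higher (30.8%, beside 9.14% of all tested genes), and 0 were called after adjustment. The summed level of 8 pericyte and smooth muscle markers was 133 to 405 CPM in anti-Ang2 and 52.5 to 215 CPM in IgG libraries (exact permutation p = 0.0317). Most of that difference lay in Cspg4 (means of 172 CPM in anti-Ang2 and 53.2 CPM in IgG libraries) and Kcnj8 (62.3 and 23.4 CPM). Of the 8 markers, 5 (Rgs5, Pdgfrb, Notch3, Myh11 and Des) were lower on average, and the list median of the log2 fold change was -0.43. Kcnj8 was the 1 pericyte marker called higher (edgeR adjusted p = 0.00545), and Pmel the 1 pigment marker (edgeR adjusted p = 0.0496). These are 12.5% and 8.33% of their lists, beside 1.34% of all tested genes. Adjusted over the 8 marker lists compared, the pigment and the pericyte sums both had an exact permutation p of 0.190. The sums for lymphatic endothelium, fibroblasts, keratinocytes, lymphocytes and erythroid cells had an adjusted exact permutation p of 0.238 to 0.929. Anti-Ang2 4 and 5 had the lowest sample quality weights (0.606 and 0.417, the other libraries 0.911 to 1.43).

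After anti-Ang2, transcripts of the glycolytic enzymes and lactate transporters had mostly positive fold changes, yet no member passed the test as higher. The 1 member called lower was the hypoxia-inducible factor subunit Epas1. Of the 35 members, all of which passed the filter on low counts, 0 were called higher and 1 was called lower by edgeR's quasi-likelihood test (adjusted p under 0.05, adjusted over all 16240 tested genes). Over all tested genes, 1.34% were called higher and 2.80% lower, so the share of members called lower (2.86%) was near that of all genes. At an unadjusted p under 0.05, 14 members were higher and 2 lower, which is 40.0% and 5.71% of the members beside 9.14% and 9.10% of all tested genes. DESeq2 called 2 members higher (Eno1 and Mif), beside 5.46% of its tested genes, and limma-voom with quality weights called 4 (Gpi1, Eno1, Ldhb and Mif), beside 4.13%. Both called Epas1 lower, beside 5.94% and 4.80% of tested genes. The log2 fold change was positive in 31 members (88.6%, beside 52.0% of all tested genes), with a median of 0.39 beside 0.01. In 0 members did all anti-Ang2 libraries lie above all IgG libraries (2.34% of all tested genes). In 1 member (2.86%), Epas1, they all lay below, beside 3.76% of all tested genes.

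The 5 anti-Ang2 libraries did not behave alike. In anti-Ang2 1, 28 of the 35 members lay above every IgG library, in anti-Ang2 2 it was 27 and in anti-Ang2 3 it was 25. In anti-Ang2 4 and in anti-Ang2 5 only 2 members each lay above every IgG library, and 4 and 8 members (11.4% and 22.9%) lay below every one. Over all tested genes, the share above every IgG library was 21.4%, 23.7%, 24.1%, 23.0% and 26.2% in anti-Ang2 libraries 1 to 5, and the share below every one was 22.1% in anti-Ang2 4 and 25.9% in anti-Ang2 5. Summed Dct and Tyrp1 stood at 4247, 2948, 3529, 1316 and 775 CPM in anti-Ang2 libraries 1 to 5, against 344, 1347, 197, 1443 and 413 CPM in IgG libraries 1 to 5. Anti-Ang2 1, 2 and 3 thus had the highest Dct and Tyrp1 levels of all 10 libraries, whereas anti-Ang2 4 and 5 lay within the range of the IgG libraries. Sample quality weights split in the same way, at 1.34, 1.05, 1.43, 0.606 and 0.417 in anti-Ang2 libraries 1 to 5. So did the mitochondrial share of counts, at 0.502%, 0.499%, 0.477%, 0.678% and 0.917% (IgG libraries 0.482% to 0.709%). Within the anti-Ang2 group, pigment level and library quality therefore cannot be told apart.

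**Figure D1:**
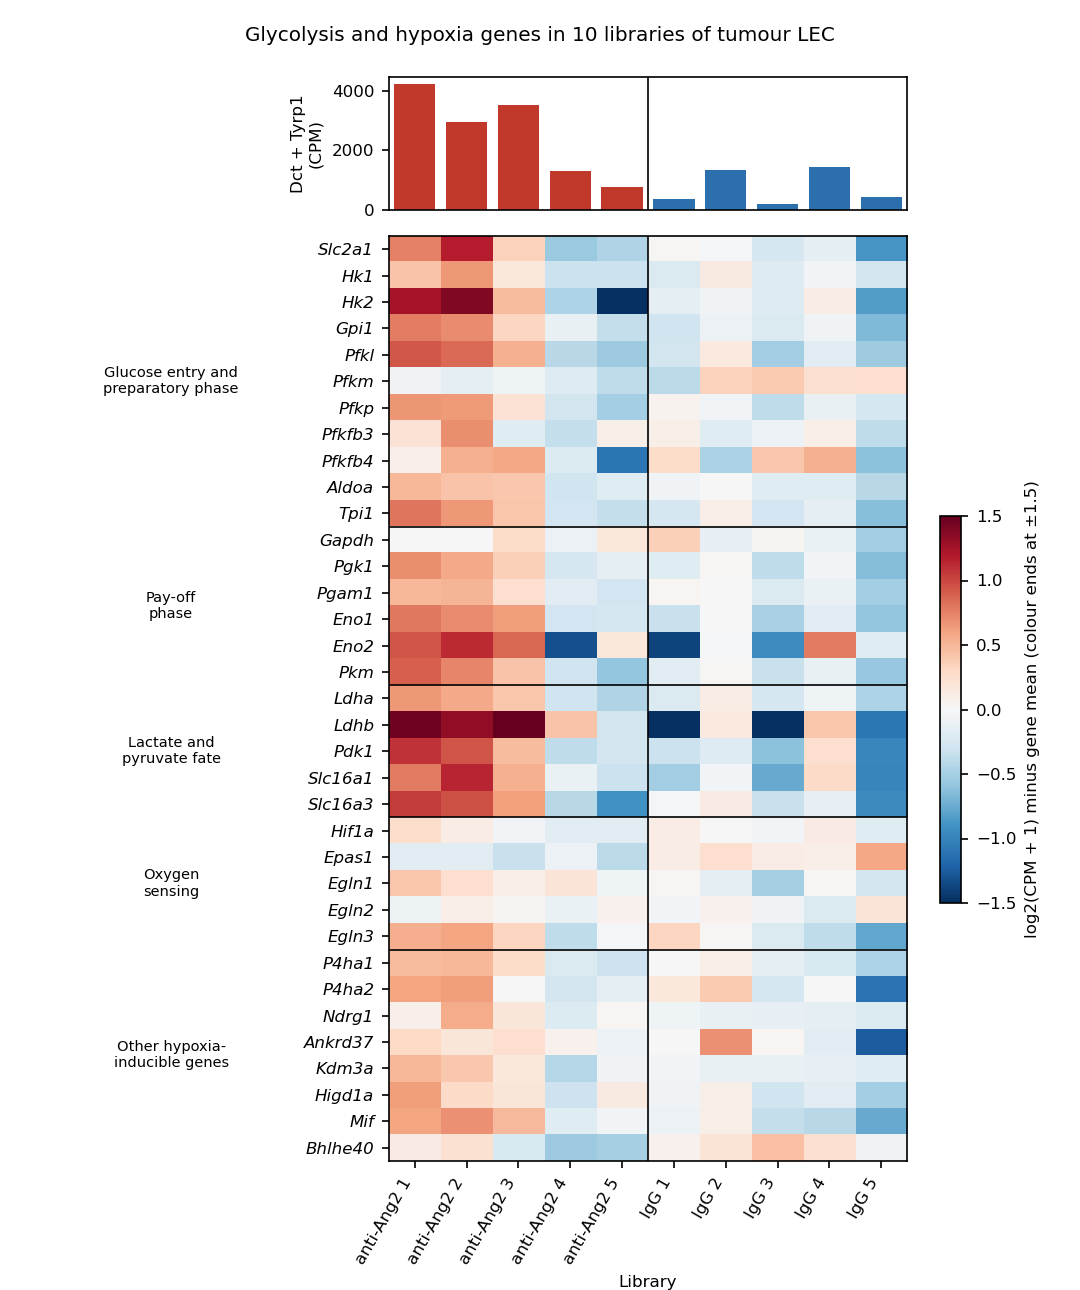
Each row is a member, in role order, and each column a library, anti-Ang2 left of IgG; colour is log2(CPM + 1) minus the mean of that gene over the 10 libraries, and the bars above give summed Dct and Tyrp1 in CPM. Most members are red in anti-Ang2 1, 2 and 3, where the bars reach 2948 to 4247 CPM, and Epas1 is blue in all 5 anti-Ang2 libraries.

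**Figure D2:**
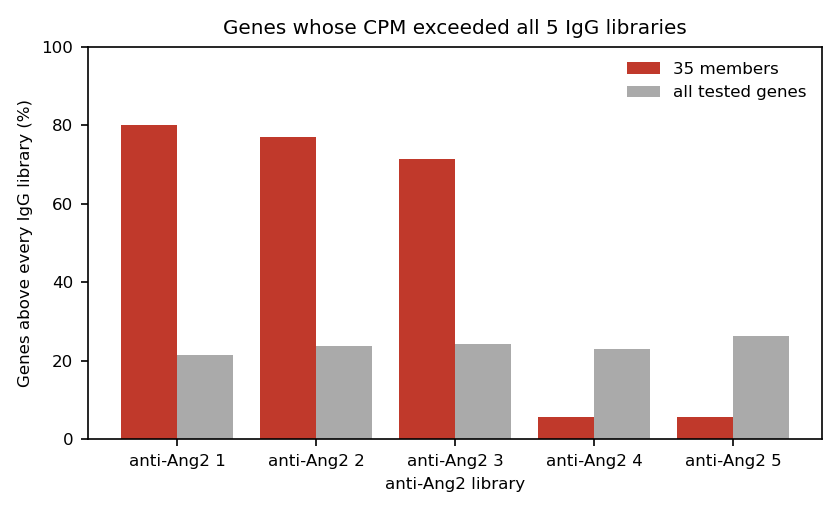
Share of genes, in percent, whose CPM in a given anti-Ang2 library exceeded that in all 5 IgG libraries, for the 35 members (red) and for all tested genes (grey). The members' share was 71.4% to 80.0% in anti-Ang2 1, 2 and 3 and 5.71% in anti-Ang2 4 and in 5.

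Genes of glucose entry and the preparatory phase had a median log2 fold change of 0.37, and 0 of 11 were called. Slc2a1, the glucose transporter GLUT1 that brings glucose into the cell, stood at 354, 476, 267, 142 and 152 CPM in anti-Ang2 libraries 1 to 5, against 211, 206, 176, 190 and 113 CPM in IgG libraries 1 to 5. The log2 fold change of Slc2a1 came to 0.63 ± 0.32 (SE; edgeR adjusted p = 0.328). The groups overlapped: 3 anti-Ang2 libraries lay above every IgG library and the other two lay below every IgG library but 1. Hk2, the inducible hexokinase that traps glucose as glucose 6-phosphate, had 31.7, 35.1, 18.1, 8.98 and 3.70 CPM in anti-Ang2 libraries 1 to 5, against 11.5, 12.2, 11.03, 13.9 and 6.65 CPM in IgG libraries 1 to 5. The log2 fold change of Hk2 was 0.82 ± 0.49, the largest of its role group, with an edgeR adjusted p of 0.433, and the spread among anti-Ang2 libraries (SD 13.7 CPM around a mean of 19.5) exceeded that among IgG libraries (SD 2.68 around 11.1). Slc2a1 lies on the plus strand at chr4:119108711-119137983 and Hk2 on the minus strand at chr6:82725025-82774454 (mm10; here and below the span covers exons, introns and untranslated regions of the gene).

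The other members of the preparatory phase were higher on average except for Pfkm and Pfkfb4. Log2 fold changes were 0.28 for Hk1, the constitutive hexokinase, 0.59 for Gpi1, which turns glucose 6-phosphate into fructose 6-phosphate, and 0.37 for Aldoa, the aldolase that splits the hexose. Tpi1, which interconverts the resulting trioses, had 0.55. Gpi1, Aldoa, Tpi1 and Pfkl had an unadjusted p under 0.05 (edgeR adjusted p 0.160 to 0.252). The 3 phosphofructokinase genes, which encode subunits of the committed step of glycolysis, differed: Pfkl had 0.65, Pfkp 0.37 and Pfkm, the muscle-type subunit, -0.37 ± 0.15 (unadjusted p 0.0327, edgeR adjusted p 0.220). The mean of Pfkm was 20.5 ± 1.88 CPM in anti-Ang2 and 26.5 ± 5.37 CPM in IgG libraries (SD, n = 5 each). Among the IgG libraries Pfkm was lowest in IgG 1, at 17.2 CPM. Of the fits that left out 1 library, only the one without IgG 1 called Pfkm lower (edgeR adjusted p = 0.029). The others had an edgeR adjusted p of 0.269 to 0.424. Of the 2 genes for enzymes that set the level of the phosphofructokinase activator fructose 2,6-bisphosphate, Pfkfb3 had a log2 fold change of 0.22 ± 0.18 and Pfkfb4 one of -0.0022 ± 0.53.

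In the pay-off phase all 6 members had a positive log2 fold change, with a median of 0.57, and 0 were called. Eno1, the main enolase, averaged 454 ± 156 CPM in anti-Ang2 and 281 ± 46.5 CPM in IgG libraries (log2 fold change 0.69 ± 0.22, edgeR adjusted p = 0.118). Its 3 highest libraries, anti-Ang2 1, 2 and 3 at 535 to 600 CPM, lay above the IgG range of 230 to 344 CPM, and anti-Ang2 4 and 5, at 283 and 288 CPM, lay within it. In the authors' deposited table, Eno1 has an adjusted p of 0.028. It is 1 of 2 members higher there at an adjusted p under 0.05, beside 781 of 18359 genes (4.25%). Eno2, the neuron-type enolase, had 6.45, 7.46, 6.05, 0.553 and 3.32 CPM in anti-Ang2 libraries 1 to 5, against 0.487, 2.79, 1.02, 5.67 and 2.43 CPM in IgG libraries 1 to 5. Its log2 fold change of 0.94 ± 0.70 was the largest of the pay-off genes and had an edgeR adjusted p of 0.542, and the groups overlapped. Pgk1, which makes the first ATP of the phase, had a log2 fold change of 0.56, Pkm, the pyruvate kinase of most tissues, 0.57, and Pgam1, a phosphoglycerate mutase, 0.41. Eno1 lies on the plus strand at chr4:150236721-150248879 and Eno2 on the minus strand at chr6:124760053-124769673.

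Gapdh, whose enzyme oxidizes glyceraldehyde 3-phosphate, had 18.0, 18.0, 22.1, 16.98 and 20.5 CPM in anti-Ang2 libraries 1 to 5, against 23.4, 16.5, 18.7, 16.8 and 12.3 CPM in IgG libraries 1 to 5 (log2 fold change 0.13 ± 0.16). Per length, its level was 4.83 ± 0.572 FPKM in anti-Ang2 and 4.38 ± 1.10 FPKM in IgG libraries (SD, n = 5 each), which put it at rank 28 of the 35 members in IgG. Near-identical copies of its transcript (at least 95% identity over at least 200 bases) are annotated at 90 other loci, of which 84 are on rows of the table and together had 16.0 FPKM in anti-Ang2 and 17.5 FPKM in IgG libraries. The levels of Gapdh and of Pgk1, Pgam1, Eno1, Pkm, Ldha, Ldhb, Tpi1, Gpi1, Higd1a and Mif, which have 1 to 4 such copies each, are therefore uncertain where reads could match more than one locus.

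Among genes of lactate and pyruvate fate, the median log2 fold change was 0.83 and 0 of 5 were called. Ldhb, the heart-type lactate dehydrogenase subunit, had 29.1, 26.5, 30.7, 13.7 and 8.01 CPM in anti-Ang2 libraries 1 to 5, against 2.31, 11.1, 1.34, 13.6 and 4.14 CPM in IgG libraries 1 to 5. Its log2 fold change of 1.73 ± 0.61 was the largest of all 35 members, with an edgeR adjusted p of 0.148. Anti-Ang2 1, 2, 3 and 4 lay above every IgG library, anti-Ang2 4 by little, and anti-Ang2 5 lay within the IgG range. Ldha, the muscle-type subunit and the main lactate-forming one, had 1165, 1097, 984, 599 and 542 CPM in anti-Ang2 libraries 1 to 5, against 635, 796, 622, 708 and 535 CPM in IgG libraries 1 to 5 (log2 fold change 0.41 ± 0.21, edgeR adjusted p = 0.347). Anti-Ang2 4 and 5 were thus among the lower libraries for Ldha.

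Pdk1, the kinase that shuts pyruvate out of the mitochondrial pyruvate dehydrogenase, averaged 50.8 ± 22.7 CPM in anti-Ang2 and 28.6 ± 9.48 CPM in IgG libraries (log2 fold change 0.83 ± 0.32, edgeR adjusted p = 0.188). Slc16a1, the monocarboxylate transporter MCT1, averaged 27.1 ± 11.4 CPM in anti-Ang2 and 14.8 ± 5.87 CPM in IgG libraries (0.87 ± 0.33, edgeR adjusted p = 0.178). Slc16a3, the lactate exporter MCT4, averaged 157 ± 80.2 CPM in anti-Ang2 and 98.2 ± 25.5 CPM in IgG libraries (0.67 ± 0.35, edgeR adjusted p = 0.359). In each of these 3 genes the spread in the anti-Ang2 group was the wider one. Ldhb lies on the minus strand at chr6:142490249-142507957, Ldha on the plus strand at chr7:46841475-46855627 and Slc16a1 on the plus strand at chr3:104638668-104658462.

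The oxygen-sensing genes held the only member that passed the test. Epas1, the HIF-2 alpha subunit that is abundant in endothelium, had 159, 158, 141, 167 and 133 CPM in anti-Ang2 libraries 1 to 5, against 191, 211, 191, 190 and 266 CPM in IgG libraries 1 to 5. Every anti-Ang2 library lay below every IgG library, and the gap between the nearest ones was 167 against 190 CPM. The means were 152 ± 13.9 CPM in anti-Ang2 and 210 ± 32.7 CPM in IgG libraries (SD, n = 5 each), so Epas1 fell by 0.47 ± 0.11 on the log2 scale (edgeR adjusted p = 0.0354). In the authors' deposited table Epas1 has an adjusted p of 0.0031, as the 1 member lower there at an adjusted p under 0.05, beside 887 of 18359 genes. The fall was as large with the pigment index as a covariate (-0.49 ± 0.16, edgeR adjusted p = 0.201) and without anti-Ang2 1, 2 and 3 (-0.49 ± 0.16, edgeR adjusted p = 0.191), but neither fit passed the threshold. It passed without IgG 1, without IgG 4 or without anti-Ang2 4, and lost the call in the other 7 fits that left out 1 library (edgeR adjusted p 0.052 to 0.099). Epas1 lies on the plus strand at chr17:86753700-86833410.

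Hif1a, the HIF-1 alpha subunit that drives the glycolytic targets, averaged 313 ± 41.5 CPM in anti-Ang2 and 312 ± 26.6 CPM in IgG libraries (SD, n = 5 each). It had 373, 335, 302, 276 and 277 CPM in anti-Ang2 libraries 1 to 5, against 337, 308, 303, 338 and 274 CPM in IgG libraries 1 to 5, and its log2 fold change was 0.0037 ± 0.10 (edgeR adjusted p = 0.991). Of the prolyl hydroxylase genes, Egln1 had a log2 fold change of 0.37 ± 0.13 (unadjusted p 0.018, edgeR adjusted p = 0.160), Egln3, itself a HIF target, 0.42 ± 0.23 and Egln2 0.012 ± 0.09. The group means of Egln1 were 28.4 ± 3.65 CPM in anti-Ang2 and 22.0 ± 3.34 CPM in IgG libraries, with overlap. HIF activity is set mainly at the protein level, which these data do not measure. Hif1a lies on the plus strand at chr12:73901375-73947530, and its exons overlap those of Gm49321 on the same strand and Gm15283 on the opposite strand.

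Of the 8 other hypoxia-inducible genes, 7 had a positive log2 fold change, with a group median of 0.29, and 0 were called. Mif, the macrophage migration inhibitory factor, had 54.2, 57.8, 50.2, 31.2 and 34.7 CPM in anti-Ang2 libraries 1 to 5, against 33.4, 38.0, 27.5, 26.4 and 20.8 CPM in IgG libraries 1 to 5 (log2 fold change 0.64 ± 0.20, edgeR adjusted p = 0.110). The groups overlapped in anti-Ang2 4 and 5. In the authors' deposited table Mif has an adjusted p of 0.0319, beside 4.25% of genes higher there at an adjusted p under 0.05. Ndrg1, a stress-responsive gene, averaged 867 ± 176 CPM in anti-Ang2 and 713 ± 25.5 CPM in IgG libraries (0.28 ± 0.12), and Higd1a, a mitochondrial protein of the hypoxia response, had 0.39 ± 0.17; both had an unadjusted p under 0.05. The collagen prolyl hydroxylase subunits P4ha1 and P4ha2 had 0.32 and 0.30, the histone demethylase Kdm3a 0.27 and Ankrd37, an ankyrin repeat gene, 0.17. Bhlhe40, a transcriptional repressor, was the exception at -0.34 ± 0.16 (edgeR adjusted p = 0.286), with 286 ± 70.2 CPM in anti-Ang2 and 363 ± 48.3 CPM in IgG libraries. Mif lies on the minus strand at chr10:75859353-75860240.

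Levels per length differed widely between members. In IgG libraries Aldoa was highest at 248 ± 30.4 FPKM, followed by Ldha at 205 ± 32.6 FPKM, and these neighbours overlapped in their ranges (200 to 274 and 160 to 246 FPKM). Ndrg1 at 111 ± 6.51, Tpi1 at 105 ± 20.2 and Pkm at 98.1 ± 16.1 FPKM followed and did not differ beyond their spread. Hif1a had 54.5 ± 6.02 and Epas1 40.5 ± 5.29 FPKM, Ldhb only 4.28 ± 3.67, and Hk2, Eno2 and Pfkfb4 closed the order at 1.91, 0.543 and 0.507 FPKM. Exons of 14 members overlap a gene on the opposite strand and those of 3 (Pfkm, Pkm and Hif1a) a gene on the same strand; the library kit does not mark strand, so these reads cannot be told apart.

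Co-variation with the pigment cell transcripts was the second comparison. The pigment index, log2 of summed Dct and Tyrp1 CPM, was entered beside treatment, so that the slope gives the log2 change of a gene per doubling of pigment cell RNA within groups. A gene in a constant ratio to Dct and Tyrp1 has a slope of 1, and a gene that does not move with them has a slope of 0. Of the 35 members, 1 was called with a positive slope and 0 with a negative one by edgeR's quasi-likelihood test, beside 1.16% and 0.0123% of 16238 tested genes. At an unadjusted p under 0.05, 16 members (45.7%) had a positive slope, beside 7.01% of tested genes, and 0 had a negative one, beside 3.57%. The slope was positive in 33 of 35 members (94.3%, beside 49.4% of tested genes), with a median of 0.21 beside -0.0014. In bulk samples, more cells of a type and more RNA per cell cannot be told apart.

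Ldhb was the member with the steepest slope, 0.98 ± 0.09 (SE; edgeR adjusted p = 0.000321), and the only one called. Its CPM per 1000 CPM of Dct and Tyrp1 was between 6.72 and 10.4 in all 10 libraries, a ratio of 1.55 between the highest and the lowest, while the summed Dct and Tyrp1 ran from 197 to 4247 CPM. Among pigment cell markers, Tyr, the tyrosinase gene, had a slope of 0.996 ± 0.06, Pmel 0.88 and Sox10 0.89. The 10 pigment markers other than Dct and Tyrp1 had slopes of 0.19 to 0.996 with a median of 0.78, and 5 of them were called. The slope of Ldhb was thus close to that of Tyr, and those of the other members were 0.74 or less. For comparison, Ldha had a slope of 0.26 ± 0.07 (edgeR adjusted p = 0.170).

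**Figure D3:**
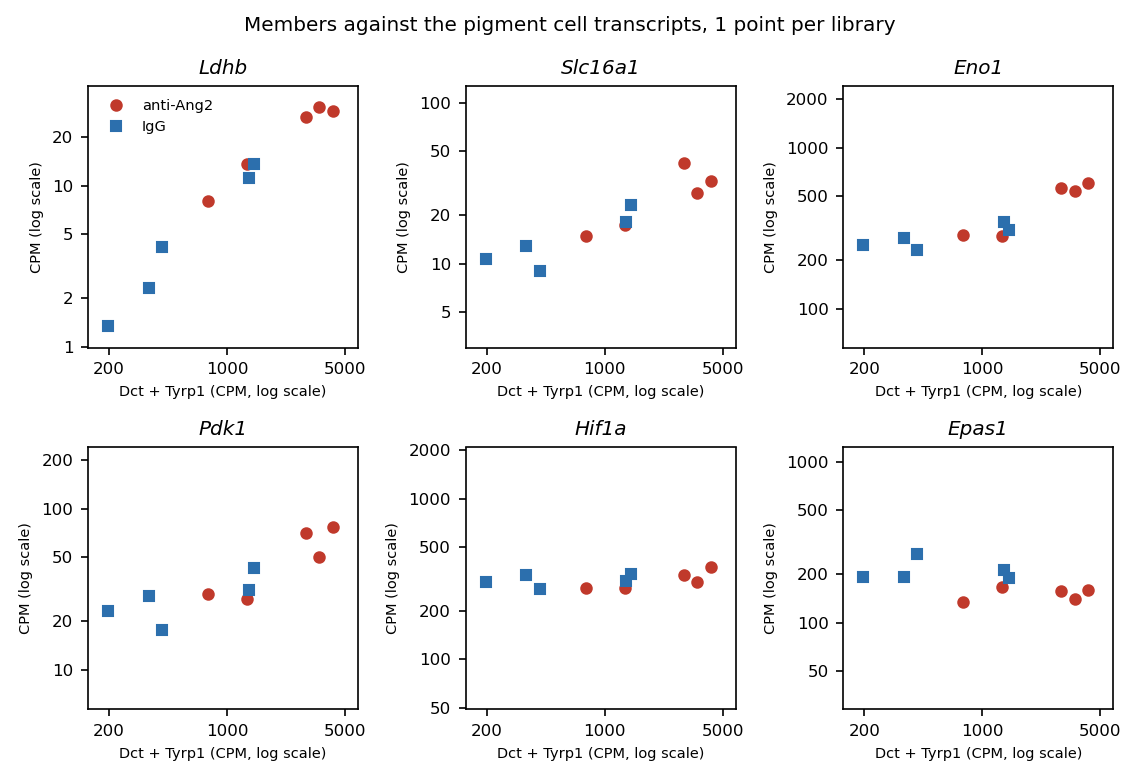
CPM of 6 members (y axis, log scale) against summed Dct and Tyrp1 CPM (x axis, log scale), 1 point per library, anti-Ang2 as red circles and IgG as blue squares; all panels span the same fold range. Ldhb climbs in both groups along 1 line from 1.34 to 30.7 CPM, Slc16a1, Eno1 and Pdk1 climb less steeply, Hif1a spans no more than 274 to 373 CPM, and Epas1 separates by group.

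The slopes were compared by role. All 5 genes of lactate and pyruvate fate had an unadjusted p under 0.05, with slopes of 0.26 to 0.98. Over all tested genes, 7.01% had a positive slope at that threshold. Slc16a1 (0.44 ± 0.09, edgeR adjusted p = 0.0522) and Pdk1 (0.39 ± 0.10, 0.141) followed Ldhb, and Slc16a3 had 0.39 ± 0.14. In the preparatory phase 7 of 11 genes had an unadjusted p under 0.05, led by Hk2 at 0.50 ± 0.22 and Pfkl at 0.37 ± 0.09 (edgeR adjusted p 0.452 and 0.121). In the pay-off phase it was 4 of 6, led by Eno2 at 0.74 ± 0.26 and including Eno1 at 0.29 ± 0.07 (0.321 and 0.110), while Gapdh had -0.045 ± 0.08. Among the 5 oxygen-sensing and the 8 other hypoxia-inducible genes it was 0 of each, which for so few genes is not far from the 7.01% of all tested genes. Their slopes were -0.018 (Egln2) to 0.12 (Egln1) and 0.050 (Ndrg1) to 0.23 (P4ha2), with Epas1 at 0.011 ± 0.06, Hif1a at 0.079 ± 0.04 and Mif at 0.18 ± 0.09. Whether slopes differ between role groups was not tested.

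**Figure D4:**
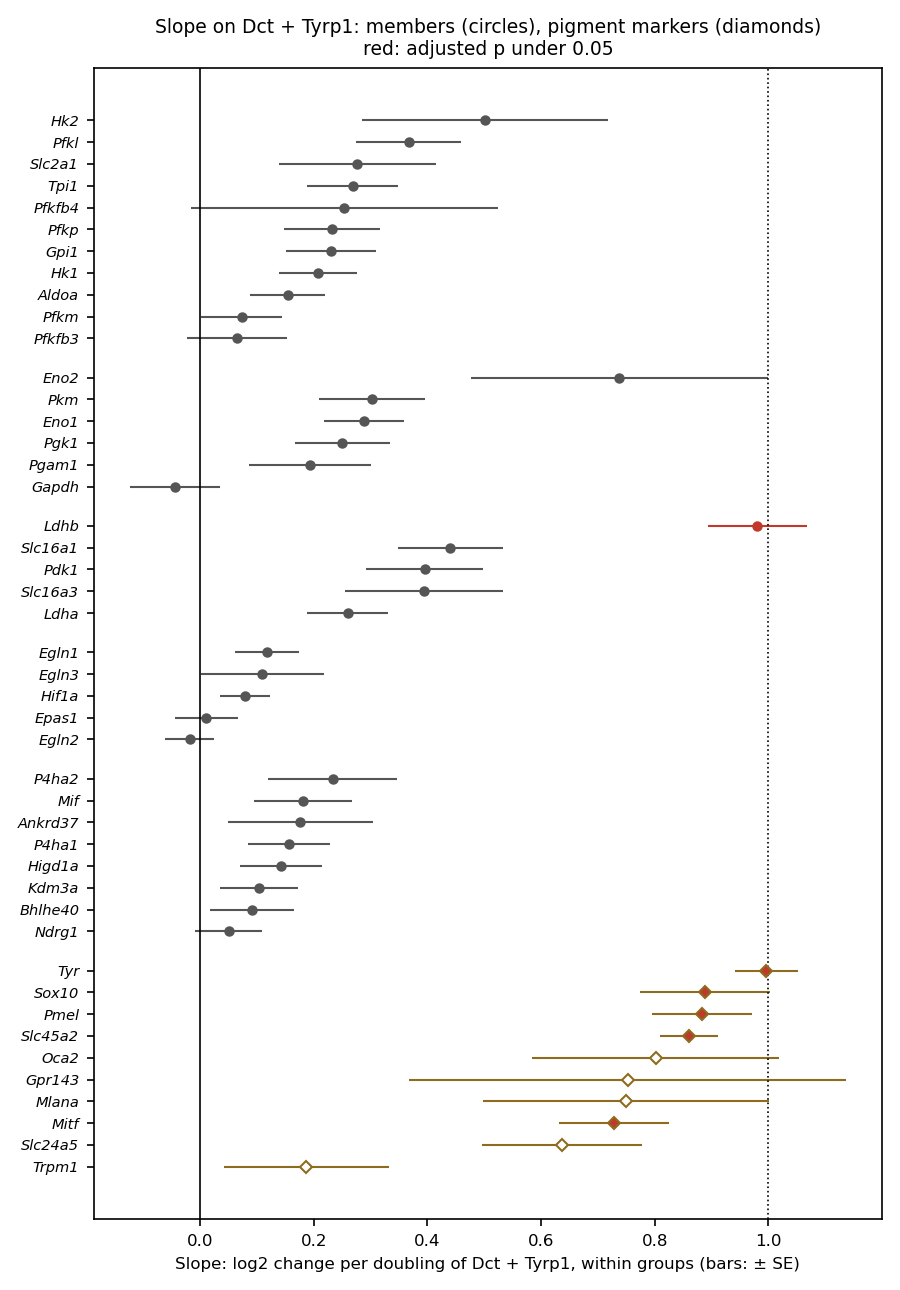
Slope of each member (circles, by role) and of 10 pigment markers (diamonds), as log2 change per doubling of summed Dct and Tyrp1 within groups, with bars of ± 1 SE; red marks an edgeR adjusted p under 0.05. Ldhb at 0.98 lies among the pigment markers, beside Tyr at 0.996, and the oxygen-sensing genes lie between -0.018 and 0.12.

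Across the 10 libraries, with treatment left aside, Pearson's r between log2 CPM and the index had a median of 0.72 over the members and of -0.0028 over 16238 genes, and it exceeded 0.8 in 10 members (28.6%) and in 3.69% of all genes. Ldhb had r = 0.988 and Spearman's rho = 0.952 (adjusted permutation p 0.0035 and 0.020, 100000 permutations, adjusted over 16238 genes), and Slc16a1 had r = 0.915 and rho = 0.927 (adjusted permutation p 0.0281 and 0.032). These were the 2 members with an adjusted p under 0.05 for r, beside 2.04% of all genes with a positive r. For rho 4 members passed, beside 1.61% of all genes with a positive rho: Eno1 (rho = 0.927, adjusted permutation p = 0.0325) and Pdk1 (rho = 0.903, adjusted permutation p = 0.0498) as well. Without the 2 libraries farthest from the median index, IgG 3 and IgG 1, r was 0.990 for Ldhb and 0.934 for Slc16a1. Because the index was higher in the anti-Ang2 group, group means were also removed before correlating; r was then 0.977 for Ldhb and 0.857 for Slc16a1, and its median was 0.63 over members and 0.014 over all genes. Hif1a had r = 0.415 before and 0.574 after removal of group means, and Epas1 had -0.527 before and 0.091 after.

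The difference between treatments was then read with the pigment index in the fit. The median log2 fold change over members was -0.00034 with the index, against 0.39 without it. Of 35 members, 17 were positive instead of 31. In this fit edgeR called 0 members in either direction, beside 0.197% of tested genes higher and 0.714% lower. Eno1 had 0.079 ± 0.21, Slc16a1 0.0049 ± 0.27, Pdk1 0.0012 ± 0.31 and Slc2a1 0.011 ± 0.42, and Ldhb had 0.16 ± 0.22. Mif had 0.27 ± 0.25 and Epas1 -0.49 ± 0.16. Since the index itself was higher after anti-Ang2, this fit divides a shared difference between both terms. With the summed macrophage markers in the fit instead, the median was 0.27, 29 members were positive and 0 were called, beside 0.234% of tested genes higher and 0.874% lower. Without anti-Ang2 1, 2 and 3, 10 members were positive, the median was -0.10 and 0 were called, beside 0.311% of tested genes higher and 1.01% lower. Without anti-Ang2 4 and 5, 32 were positive, the median was 0.65 and 18 were called higher and 0 lower (beside 3.10% and 3.49% of tested genes), among them Slc2a1, Hk2, Eno1, Ldha, Pdk1, Slc16a1 and Mif. Pigment cell RNA and treatment cannot be told apart in the remaining 3 anti-Ang2 libraries of that fit. Both subsets were chosen after the data were seen, by pigment index and by quality weight. Most members were already known to be high in anti-Ang2 1, 2 and 3 and not in 4 and 5. The counts of these 2 fits therefore follow from the choice of libraries and are a description only.

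**Figure D5:**
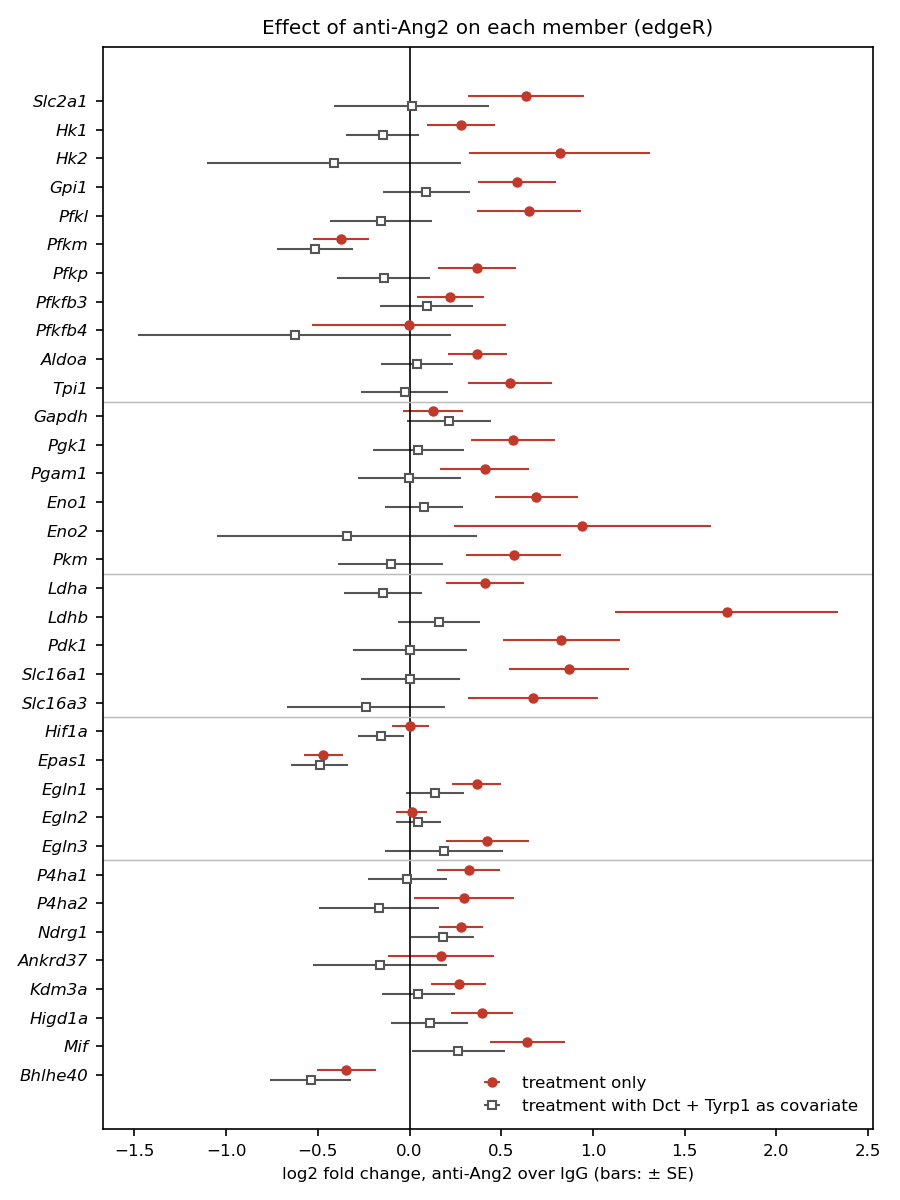
Log2 fold change of each member, anti-Ang2 over IgG, with bars of ± 1 SE, from edgeR with treatment only (red circles) and with the pigment index as a covariate (open squares). With the covariate most members lie near 0 with wider bars, such as Eno1 at 0.079 instead of 0.69, while Epas1 lies at -0.49 beside -0.47.

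Other genes of the same pathways were counted from lists written from textbook knowledge, but with earlier results of these data known. Shares of these lists are therefore a description and no independent support. In the lists, the secreted peptide Adm and the receptor Cxcr4 rose and the mTORC1 inhibitor Ddit4 fell. Of 33 tested other genes of glycolysis and pyruvate metabolism, edgeR called 0 in either direction, and the median log2 fold change was 0.19. At an unadjusted p under 0.05, 5 were higher (15.2%, beside 9.14% of all tested genes) and 1 lower (3.03%, beside 9.10%). DESeq2 and limma-voom each called 1 higher, beside 5.46% and 4.13% of their tested genes, and 0 lower, beside 5.94% and 4.80%. Of 44 tested other oxygen-sensing and hypoxia-inducible genes, 2 were called higher (4.55%, beside 1.34% of all tested genes) and 1 lower (2.27%, beside 2.80%), with a median of 0.24. At an unadjusted p under 0.05 it was 12 higher (27.3%, beside 9.14%) and 3 lower (6.82%, beside 9.10%). DESeq2 called 7 of them higher and 2 lower, beside 5.46% and 5.94% of its tested genes, and limma-voom 4 and 2, beside 4.13% and 4.80%. Adm, the vasodilator peptide adrenomedullin, had 505, 691, 755, 529 and 434 CPM in anti-Ang2 libraries 1 to 5, against 267, 271, 165, 229 and 196 CPM in IgG libraries 1 to 5. It rose by 1.37 ± 0.18 on the log2 scale (edgeR adjusted p = 0.00182), with all anti-Ang2 libraries above all IgG libraries, anti-Ang2 4 and 5 included. With the index as a covariate Adm had 1.03 ± 0.21 (edgeR adjusted p = 0.052), and without anti-Ang2 1, 2 and 3 it had 1.08 ± 0.19 (0.0403).

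Cxcr4, a chemokine receptor, rose by 1.20 ± 0.27 on the log2 scale, with 9.43 ± 2.55 CPM in anti-Ang2 and 4.09 ± 1.27 CPM in IgG libraries (edgeR adjusted p = 0.0316). It had 1.06 ± 0.36 with the index (edgeR adjusted p = 0.222) and lost the call without any 1 of anti-Ang2 1, 3 or 4 or of IgG 1, 2, 3 or 5 (edgeR adjusted p 0.0627 to 0.0751). Ddit4, an inhibitor of mTORC1, fell by 0.98 ± 0.12, with 50.6 ± 8.03 CPM in anti-Ang2 and 100.1 ± 9.87 CPM in IgG libraries and no overlap (edgeR adjusted p = 0.00111). With the index as a covariate Ddit4 had -0.84 ± 0.14 (edgeR adjusted p = 0.029). The slopes of Adm, Cxcr4 and Ddit4 on the index were 0.17, 0.081 and -0.078, and none was called.

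Promoter sequence was looked at because many members moved together across libraries and because the hypoxia response element has a known core. The core was searched as ACGTG or GCGTG on both strands in the 250 bases before each RefSeq start (assembly GRCm38.p6); the palindrome CACGTG, an E-box, is counted on both strands. Of the 35 members, 32 are in the RefSeq promoter table, and 28 of these (87.5%) hold a match in at least 1 window, beside 59.8% of 10971 tested genes in the table. Per window it was 36 of 47 (76.6%), beside 38.6% of the 32851 windows of the whole promoter table. Those windows were not limited to tested genes, so the 2 shares per window are not of like sets. Member windows held a median of 14 CG dinucleotides, beside 6 over all windows of the promoter table, tested genes or not, and both cores contain CG. The members were also chosen by name as glycolysis and hypoxia response genes, so their higher share of matches is no independent finding. Whether the matches bear on how members moved across libraries was not tested. The windows of the lactate dehydrogenase pair and of MCT1 are printed 5′ to 3′ on the gene's strand, as they belong to the steepest called slope, its less steep paralogue and the next member by slope p, with matches in capitals. Ldhb (chr6:142507958-142508207, minus strand) has 1 match, Ldha (chr7:46845554-46845803, plus strand, the window with the most matches of its 2, the other having 1) has 5, and Slc16a1 (chr3:104638414-104638663, plus strand) has 4.
Ldhb: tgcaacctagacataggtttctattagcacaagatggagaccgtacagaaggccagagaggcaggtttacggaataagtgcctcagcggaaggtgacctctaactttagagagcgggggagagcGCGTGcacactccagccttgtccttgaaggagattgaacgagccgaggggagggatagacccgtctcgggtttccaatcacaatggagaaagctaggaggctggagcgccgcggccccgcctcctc
Ldha: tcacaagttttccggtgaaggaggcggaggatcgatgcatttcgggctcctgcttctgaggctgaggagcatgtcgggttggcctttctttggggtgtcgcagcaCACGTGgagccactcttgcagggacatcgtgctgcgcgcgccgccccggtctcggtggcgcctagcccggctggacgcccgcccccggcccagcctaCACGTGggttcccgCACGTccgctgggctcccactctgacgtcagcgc
Slc16a1: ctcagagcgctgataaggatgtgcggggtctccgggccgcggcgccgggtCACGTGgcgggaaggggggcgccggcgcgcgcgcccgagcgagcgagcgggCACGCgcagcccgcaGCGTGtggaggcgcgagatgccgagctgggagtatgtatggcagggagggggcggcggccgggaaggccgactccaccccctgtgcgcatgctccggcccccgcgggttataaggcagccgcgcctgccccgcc
A match in letters is not a bound site.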

How the data were processed

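LEC RNA of 10 mice (5 anti-Ang2, 5 IgG) was sequenced with 1 library per mouse. Groups come from the treatment label. The series design names independent biological replicates, and no batch is labelled. STAR, featureCounts, DESeq2 and the mm10 genome were used per the submitters' processing notes. Their versions, the annotation and any strand setting are not given in the sources used here.

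Per the file headers, the authors deposited raw counts per gene, the input of every test. The deposited FPKM values were used for levels between genes only. The deposited TPM columns were treated as a score and entered no result, nor did the deposited baseMean signal. Log2 fold changes and p-values from the authors' deposited table are quoted as theirs. There were 23510 rows, 0 without a gene name, and every column of values per sample was assigned to a library.

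Counts were tested with edgeR 4.0.16 in R 4.3.3 (two-sided quasi-likelihood F test, TMM, filterByExpr at 10 counts and 15 in total, Benjamini-Hochberg adjustment over 16240 genes, called under 0.05). The SE was derived from the F statistic. Slopes were tested beside treatment and leave out Dct and Tyrp1. Marker sums were compared over all 252 arrangements of 5 against 5 libraries. Correlations used log2 CPM with a prior count of 2. Alternatives used limma 3.58.1 and DESeq2 1.42.0; figures and annotation used Python 3.11.15, pandas 2.3.3, numpy 2.4.6, scipy 1.17.1, matplotlib 3.10.9 and blastn 2.17.0. The scripts were tested on simulated data. Coordinates come from GENCODE release M21 (mm10), in which all 35 members matched by ID without its version; promoters come from RefSeq.

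Values in every library are given for members called in either test, for the largest change in each role group and for Hif1a, Slc2a1 and Ldha; those of Gapdh were added after its values were seen. Members and lists were chosen with earlier results of these data known. Every pair of libraries differed beyond sampling noise (chi-square per degree of freedom of 57.3 or more). Reads carry no molecular identifiers.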

Additional observations from a re-analysis of the deposited data

Results flagged for a closer look

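Over 86 groups of 5 libraries examined (each member and each of the 8 marker sums in each treatment), 4 held a library far from the others by Dixon's criterion (a gap over 0.71 of the group's range); chance flags about 1 in 20 such groups. Pfkm was at 17.2 CPM in IgG 1, and the nearest IgG library had 27.4 CPM. Epas1 was at 266 CPM in IgG 5, with the nearest IgG library at 211 CPM; without IgG 5 the fall of Epas1 after anti-Ang2 had an edgeR adjusted p of 0.052. The summed macrophage and monocyte markers reached 234 CPM in IgG 1, with the nearest IgG library at 89.8 CPM. The summed erythroid markers reached 12.1 CPM in IgG 3, with the nearest IgG library at 2.60 CPM.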

How the results depend on the processing

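Epas1 kept its negative log2 fold change in every alternative run, and members that changed sign are listed below. Members called higher and lower were 0 and 1 with DESeq2 size factors in edgeR and without the filter on low counts, 2 and 1 with DESeq2, 4 and 1 with limma-voom, 0 and 0 with the pigment index or with the macrophage sum as a covariate, and, in 2 alternatives chosen after seeing the data, 0 and 0 without anti-Ang2 1, 2 and 3 and 18 and 0 without anti-Ang2 4 and 5. The counts over all genes, 217 and 454 in the test as reported, were 810 and 880 with DESeq2, 670 and 780 with limma-voom, 32 and 116 with the pigment index, 38 and 142 with the macrophage sum, 55 and 178 without anti-Ang2 1, 2 and 3, and 531 higher without anti-Ang2 4 and 5. Leaving out 1 library at a time gave 0 to 2 members lower and 0 higher, and 82 to 326 genes higher and 259 to 468 lower over all genes. Members called with a positive slope were 2 with Tyrp1 alone as index and 10 with the index but without treatment; leaving out 1 library gave 1 to 2, the second member being Slc16a1 without anti-Ang2 2. Over all genes the positive and negative slopes, 188 and 2 in the test as reported, had 1 negative with Dct alone, 6 with Tyrp1 alone, 494 and 55 without treatment, 10 and 0 without anti-Ang2 1, 2 and 3, 100 and 0 without anti-Ang2 4 and 5, and 128 to 235 and 1 to 20 without 1 library. The cause of these moves was not tested, except that the fits without libraries hold fewer samples.

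The replicate numbers of the titles did not pair the libraries: deviations from the group means of same-numbered libraries correlated at -0.12, 0.11, -0.11, -0.086 and -0.042, and 1 of 5 libraries correlated best with its own number. With the replicate block, 1 member was called higher (Mif, log2 fold change 0.63) and 0 lower, over all genes 82 and 268, and with the block 63 genes had a positive and 0 a negative slope; signs changed for Hif1a -0.0018 (log2 fold change) and for Pfkfb3 -0.019, Egln2 0.0026 and Ankrd37 -0.019 (slope).

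Log2 fold changes of the following members changed sign, all of them without a call in either fit. With the pigment index as a covariate these were Hk1 -0.15, Hk2 -0.41, Pfkl -0.15, Pfkp -0.14, Tpi1 -0.027, Pgam1 -0.00034, Eno2 -0.34, Pkm -0.10, Ldha -0.14, Slc16a3 -0.24, Hif1a -0.16, P4ha1 -0.011, P4ha2 -0.17 and Ankrd37 -0.16. With the macrophage sum they were Gapdh -0.016 and Hif1a -0.089. Without anti-Ang2 1, 2 and 3 they were Slc2a1 -0.30, Hk1 -0.22, Hk2 -0.81, Pfkl -0.24, Pfkp -0.26, Pfkfb3 -0.045, Aldoa -0.089, Tpi1 -0.10, Pgam1 -0.10, Eno2 -0.37, Pkm -0.22, Ldha -0.22, Pdk1 -0.020, Slc16a3 -0.44, Hif1a -0.18, Egln2 -0.024, Egln3 -0.039, P4ha1 -0.14, P4ha2 -0.14, Ankrd37 -0.0075 and Kdm3a -0.13. Pfkfb4 had 0.0051 with DESeq2 size factors, 0.0071 with DESeq2, 0.41 with limma-voom and 0.42 without anti-Ang2 4 and 5, and Hif1a had -0.0049 without the filter. When 1 library was left out, Pfkfb4 had -0.22 to 0.26, Hif1a -0.068 to 0.045, Egln2 -0.038 to 0.066 and Ankrd37 -0.034 to 0.44. Slopes changed sign without treatment for Pfkm -0.049, Gapdh 0.0067, Epas1 -0.11 and Bhlhe40 -0.037, without anti-Ang2 1, 2 and 3 for Pfkfb3 -0.013, Egln3 -0.052, Ndrg1 -0.025, Kdm3a -0.036 and Bhlhe40 -0.032, and without anti-Ang2 4 and 5 for Pfkfb3 -0.0028, Pfkfb4 -0.082, Epas1 -0.013, Egln3 -0.028, Ndrg1 -0.027, Kdm3a -0.0043 and Bhlhe40 -0.029. With 1 library left out the slope of Epas1 was -0.026 to 0.043 and that of Egln2 -0.037 to 0.018. The difference between group means of summed markers, in CPM, then changed sign for fibroblasts (-60.0 to 131.9), keratinocytes (-0.669 to 0.026) and erythroid cells (-2.38 to 0.365).

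Libraries held 38090933 or more counts. The widest errors of a member's log2 fold change were those of Eno2, Ldhb and Pfkfb4 (SE 0.70, 0.61 and 0.53). RNA of pigment cells and treatment moved together in 3 of 5 anti-Ang2 libraries, and for members that also move with Dct and Tyrp1 the share of each cannot be told apart.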

Other observations

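Over all tested genes, only Ccl21a and Lax1 were called with a negative slope on Dct and Tyrp1. Ccl21a, a chemokine made by lymphatic endothelium, averaged 379 CPM in anti-Ang2 and 883 CPM in IgG libraries, with a slope of -0.26 ± 0.04 (edgeR adjusted p = 0.016). Among the pericyte markers, the proteoglycan gene Cspg4, which melanoma cells are also known to express, had a slope of 0.89 and was 64.4 to 274 CPM in anti-Ang2 and 16.96 to 104 CPM in IgG libraries.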
